A study of Mus musculus with 10 samples.

Results

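Growth factor signalling genes of early blood progenitors were examined in mouse Flk1+ cells with and without the adaptor gene Ldb1. They were 3 ligand genes (Kitl, Lif and Csf1), 4 receptor genes (Kit, Lifr, Il6st and Epor), the kinase gene Jak2 and the transcription factor gene Stat3. These 9 genes were found by symbol among 21868 genes of the deposited count table, and all 9 passed the filter on low counts. They were chosen by their roles and from a KO against WT comparison of these same libraries whose results were already known, so their differences between genotypes are given as a description with no test.

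The KO libraries came from Ldb1-/- ES cells and the WT libraries from Ldb1+/+ ES cells, both differentiated in suspension as embryoid bodies in serum medium without added LIF and sorted for Flk1, the VEGF receptor encoded by Kdr. How the Ldb1 allele was made, how many ES cell clones were used and on which day the sorted cells were taken are not stated in the labels. Each genotype has only its own cells, so the loss of Ldb1 and any other difference between these ES cells cannot be told apart. The 4 libraries of each genotype had 11258493 to 13483294 counts. Libraries 1 and 2, and likewise 3 and 4, differed by little more than sampling noise and were summed to samples A and B, which leaves n = 2 per genotype. Whether A and B were separate cultures is not labelled, so the spread between them, on which every p-value here rests, may be technical. Where 2 values are given for a genotype, that of sample A precedes that of sample B. The letters follow the library numbers, and nothing shows that they pair a KO sample with a WT sample. Differences between same-lettered samples are therefore no replicate comparisons.

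The targeted gene and the marker of the sort were read first. Ldb1 transcripts stood at 96.1 and 80.1 reads per 1000000 (CPM) in KO samples and 105 and 113 CPM in WT samples, which checks nothing where the allele is not described. Kdr, the marker of the sort, stood at 236 and 78.6 CPM in KO samples and 440 and 605 CPM in WT samples. The 6 progenitor markers summed to 314 and 120 CPM in KO and 540 and 789 CPM in WT, and most of each sum was Kdr itself. Of the other 5, Tal1 and Lmo2 were lower in both KO samples than in both WT samples. Etv2 stood at 6.31 and 4.02 CPM in KO samples and 6.36 and 18.5 CPM in WT samples, nearly equal in KO sample A and WT sample A. T stood at 7.95 and 1.44 CPM in KO samples and 0.896 and 12.6 CPM in WT samples, and Pdgfra at 12.5 and 8.23 CPM in KO samples and 12 and 53.5 CPM in WT samples. The 6 endoderm markers summed to 31.1 and 8.78 CPM in KO and 36.2 and 57.4 CPM in WT. Sox17 and Hnf4a were lower in both KO samples than in both WT samples, and Foxa2, Cer1, Ttr and Afp overlapped between the genotypes. The part of progenitor and endoderm cells in the differences below was not tested.

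Cytokines of this group act through receptors that either carry their own kinase or borrow one. Kit, the receptor for stem cell factor (the product of Kitl), is a receptor tyrosine kinase, as is Csf1r, the receptor for Csf1. Epor and the pair formed by Lifr and Il6st (gp130) have no kinase domain and signal through bound JAK kinases, which phosphorylate STAT factors that enter the nucleus. Kit and Epor sustain blood progenitors and erythroid precursors, Csf1 drives the growth of macrophages, and LIF acting through Stat3 keeps mouse ES cells undifferentiated. Ldb1 is known to join Gata1 and Tal1 in erythroid complexes on DNA with GATA and E-box motifs.

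Promoter windows of RefSeq (build GRCm38.p6, 250 bases before to 50 bases after a listed start) were available for all 9 genes. They were searched on both strands for the GATA motif GATAA, the E-box CAGNTG and the STAT motif TTCNNNGAA, which were present in 25.4%, 51.4% and 8.3% of 32851 windows of the same length. The windows of Epor, Lifr and Csf1 are shown because these genes differed most between the genotypes. Capitals mark matches to any of the 3 motifs, and each window reads 5′ to 3′ on the strand of its gene. Epor lies on the minus strand (chr9:21963527-21963826), Lifr has 2 listed starts on the plus strand (chr15:7129322-7129621 and chr15:7140292-7140591) and Csf1 lies on the minus strand (chr3:107760420-107760719).
Epor: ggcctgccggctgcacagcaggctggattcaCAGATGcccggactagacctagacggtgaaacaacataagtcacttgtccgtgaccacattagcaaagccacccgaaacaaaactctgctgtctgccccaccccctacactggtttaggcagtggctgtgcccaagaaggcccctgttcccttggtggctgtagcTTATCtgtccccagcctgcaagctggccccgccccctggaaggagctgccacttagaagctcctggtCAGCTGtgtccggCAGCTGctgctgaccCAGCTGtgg
Lifr, first start: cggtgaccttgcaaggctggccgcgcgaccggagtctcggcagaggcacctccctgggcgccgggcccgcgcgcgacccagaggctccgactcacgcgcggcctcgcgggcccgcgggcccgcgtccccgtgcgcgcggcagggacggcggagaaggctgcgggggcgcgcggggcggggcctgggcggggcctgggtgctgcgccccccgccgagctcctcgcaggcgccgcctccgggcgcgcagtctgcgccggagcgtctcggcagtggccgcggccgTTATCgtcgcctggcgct
Lifr, second start: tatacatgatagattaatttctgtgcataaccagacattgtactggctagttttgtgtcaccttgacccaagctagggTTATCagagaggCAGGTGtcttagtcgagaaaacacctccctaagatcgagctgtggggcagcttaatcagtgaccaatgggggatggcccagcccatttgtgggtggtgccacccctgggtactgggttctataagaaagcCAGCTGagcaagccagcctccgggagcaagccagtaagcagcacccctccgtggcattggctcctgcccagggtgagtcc
Csf1: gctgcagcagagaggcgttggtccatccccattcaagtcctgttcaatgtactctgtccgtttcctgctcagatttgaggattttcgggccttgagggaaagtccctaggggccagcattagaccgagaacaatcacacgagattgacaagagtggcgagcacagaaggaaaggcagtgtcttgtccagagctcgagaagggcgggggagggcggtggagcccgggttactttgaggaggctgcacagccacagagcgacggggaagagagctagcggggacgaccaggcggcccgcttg

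The Epor window held 1 GATA match, which began 54 bases before the start, and 4 E-box matches, 3 of them in the 50 bases after the start. The second Lifr window held 1 GATA match and 2 E-box matches, and its first window 1 GATA match. The Csf1 window held no match to the 3 motifs. The Kit, Kitl and Il6st windows also held none, the Lif window held 3 E-box matches, and the Jak2 and Stat3 windows held 1 E-box match each. No window of the 9 genes held a STAT match. A match describes letters and is not a site of binding, and sites farther from a start were not searched.

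Among the ligand genes, Csf1 differed most between the genotypes. Csf1 (ENSMUSG00000014599) encodes the macrophage growth factor M-CSF. Its level in CPM, after TMM scaling for library composition, was 110, 101, 133 and 130 in KO libraries 1 to 4, against 28.0, 26.3, 34.8 and 34.4 CPM in WT libraries 1 to 4. Every KO library lay above every WT library, and within each genotype sample B lay slightly above sample A. The samples averaged 119 ± 18.7 CPM in KO and 30.9 ± 5.30 CPM in WT (SD, n = 2 each), 3.83-fold higher in KO (log2 fold change 1.94, SE 0.19, from the fit of all genes). The difference was 1.96 on the log2 scale between the A samples and 1.93 between the B samples.

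Csf1r (ENSMUSG00000024621), the receptor for Csf1, is no member of the group but completes the pair. It stood at 5.66 and 7.02 CPM in KO samples, against 5.63 and 4.30 CPM in WT samples, and its libraries overlapped between the genotypes. Its log2 fold change was 0.35 (SE 0.28), with 62 to 94 reads per KO library and 55 to 71 per WT library. Per transcript length, the ratio of Csf1 to Csf1r was 17.2 and 17.4 in KO samples A and B and 4.46 and 7.46 in WT samples A and B. Csf1 exceeded its receptor in every library, and the ratio was 3.00-fold higher in KO.

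Of the other macrophage markers, Cd68 and Fcgr1 were measured in both genotypes and the rest were near the limit of detection. Adgre1 had 2 reads over all 8 libraries and Ptprc 22, and Lyz2 had 28, all of them in WT. The 6 macrophage and myeloid markers summed to 35.7 and 57.0 CPM in KO samples and 56.5 and 48.4 CPM in WT samples, most of it from the lysosomal gene Cd68. The 6 smooth muscle and mesenchyme markers went in the direction of Csf1 between the genotypes. All 6 were higher in both KO samples than in both WT samples, and they summed to 1649 and 3027 CPM in KO and 681 and 782 CPM in WT. The part of such cells in the Csf1 level was not tested. In these bulk samples, fewer cells of a type and less RNA per cell cannot be told apart.

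Lif (ENSMUSG00000034394) encodes leukaemia inhibitory factor. It stood at 21.4, 26.8, 30.0 and 28.7 CPM in KO libraries 1 to 4, against 16.4, 20.6, 19.6 and 18.3 CPM in WT libraries 1 to 4. The ranges did not overlap, although KO library 1 lay only just above WT library 2. Samples averaged 26.7 ± 3.73 CPM in KO and 18.7 ± 0.299 CPM in WT (SD, n = 2 each; log2 fold change 0.51, SE 0.17). Lif lies on chromosome 11, whose 912 genes above a log2 CPM of 3 had a median log2 fold change of -0.47, while the median of all tested genes was -0.01. With the chromosome median removed, the Lif value was 0.98.

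Kitl (ENSMUSG00000019966), which encodes stem cell factor, differed more between the WT samples (0.84 on the log2 scale, B minus A) than between the genotypes. It stood at 21.1, 19.5, 25.5 and 24.8 CPM in KO libraries 1 to 4, against 11.7, 13.7, 23.2 and 22.5 CPM in WT libraries 1 to 4. WT sample B overlapped the KO libraries, and WT sample A lay below all of them. The log2 difference was 0.67 between the A samples and 0.14 between the B samples, and the fit gave 0.35 (SE 0.31). Without WT sample A it gave -0.01 and without WT sample B 0.84.

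**Figure D1:**
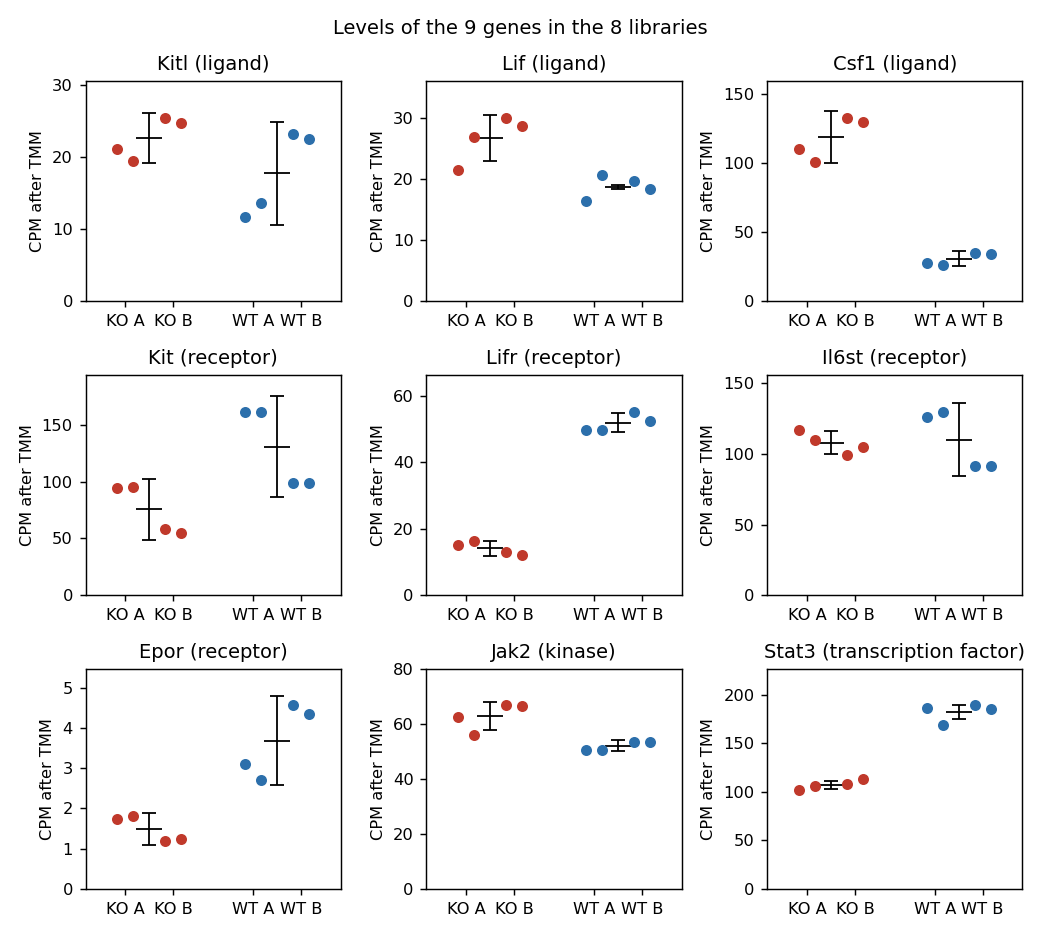
Levels of the 9 genes in CPM after TMM scaling (vertical axes, starting at 0) in the libraries of KO samples A and B (red) and WT samples A and B (blue), with black bars for the mean and SD of the 2 samples per genotype. Csf1 was between 101 and 133 CPM in KO and between 26.3 and 34.8 CPM in WT, Lifr between 12.1 and 16.4 CPM in KO and between 49.7 and 55.2 CPM in WT, and Kit differed about as much between samples A and B as between the genotypes.

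Among the receptor genes, Lifr showed the widest gap. Lifr (ENSMUSG00000054263) encodes the ligand-binding LIF receptor chain. It stood at 15.1, 16.4, 12.9 and 12.1 CPM in KO libraries 1 to 4, against 49.8, 49.7, 55.2 and 52.4 CPM in WT libraries 1 to 4. No KO library came near the WT range. Samples averaged 14.1 ± 2.29 CPM in KO and 51.8 ± 2.84 CPM in WT (SD, n = 2 each), 3.67-fold lower in KO (log2 fold change -1.88, SE 0.18), with -1.66 between the A samples and -2.11 between the B samples.

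Il6st (ENSMUSG00000021756) encodes gp130, the signalling chain that Lifr shares with other receptors of the interleukin-6 family. It stood at 117, 110, 99.4 and 105 CPM in KO libraries 1 to 4, against 126, 130, 91.4 and 91.7 CPM in WT libraries 1 to 4. The KO libraries lay within the WT range, between WT sample A and WT sample B. The log2 fold change was -0.02 (SE 0.19), from -0.17 between the A samples to 0.16 between the B samples. The chains that together form the LIF receptor thus differed in how far they stood from WT.

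The ratio of Lif to Lifr differed most of the 5 pairs. Per transcript length, it was 1.29 and 1.98 in KO samples A and B and 0.313 and 0.296 in WT samples A and B. All 4 KO libraries lay above 1 and all 4 WT libraries below it, and the ratio was 5.24-fold higher in KO (log2 2.39). The position relative to 1 depends on the length deposited for each gene, whose choice is not given. The fold between genotypes does not. The ratio of Lif to Il6st was 0.285 and 0.386 in KO samples and 0.195 and 0.278 in WT samples, and its libraries overlapped.

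The 8 pluripotency markers summed to 813 and 1049 CPM in KO samples and to 1855 and 438 CPM in WT samples. The part of pluripotent cells in the Lifr level was not tested. Of the 8 markers, Tbx3 was the 1 gene lower in both KO samples than in both WT samples, and Pou5f1 stood at 257 and 253 CPM in KO and 281 and 81.3 CPM in WT.

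Kit (ENSMUSG00000005672) encodes the receptor tyrosine kinase c-Kit. It stood at 94.3, 95.6, 58.6 and 55.0 CPM in KO libraries 1 to 4, against 162, 162, 99.1 and 98.8 CPM in WT libraries 1 to 4. KO sample A lay just below WT sample B, so the genotypes did not overlap but nearly met. Within each genotype sample B was lower than sample A, with a log2 difference of -0.74 in KO and -0.71 in WT. Between same-lettered samples the difference between genotypes was of the same size, -0.77 for A and -0.80 for B. With the letters crossed, KO sample A stood at 94.9 CPM against 99.0 CPM in WT sample B. KO sample B then stood at 56.8 CPM against 162 CPM in WT sample A. The fit gave -0.78 (SE 0.36). It gave -0.39 without WT sample A, -0.46 without KO sample B and -1.19 without KO sample A.

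The endothelial markers also stood lower in sample B of each genotype. The 5 genes summed to 354 and 149 CPM in KO samples and to 584 and 294 CPM in WT samples. Pecam1, at 69.9 and 39.8 CPM in KO samples and 317 and 131 CPM in WT samples, and Esam were lower in both KO samples. Emcn was higher in both KO samples than in both WT samples, and Cdh5 and Tek overlapped between the genotypes. The part of endothelial cells in the Kit level was not tested. The ratio of Kitl to Kit per transcript length was 0.195 and 0.405 in KO samples and 0.0717 and 0.211 in WT samples. Kit outnumbered Kitl in every library, and the ratio of WT sample B exceeded that of KO sample A.

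Epor (ENSMUSG00000006235), the erythropoietin receptor gene, was the least abundant member. It stood at 1.74, 1.80, 1.18 and 1.24 CPM in KO libraries 1 to 4, against 3.10, 2.71, 4.56 and 4.34 CPM in WT libraries 1 to 4. These values rest on 15 to 21 reads per KO library and 32 to 60 reads per WT library. The ranges did not overlap, and samples averaged 1.49 ± 0.397 CPM in KO and 3.68 ± 1.10 CPM in WT (SD, n = 2 each; log2 fold change -1.30, SE 0.39). Sample B was lower than sample A in KO (-0.55) and higher in WT (0.62), so the difference was -0.71 between the A samples and -1.88 between the B samples.

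Erythroid markers went in the direction of Epor between the genotypes. The 5 primitive erythroid markers summed to 0.605 and 0.78 CPM in KO samples and to 20.2 and 36 CPM in WT samples, all 5 were lower in both KO samples, and the globin gene Hbb-bh1 had no read in KO. The part of erythroid cells in the Epor level was not tested. Epo (ENSMUSG00000029711), the ligand gene, stood at 2.12 and 1.37 CPM in KO samples and 1.92 and 1.59 CPM in WT samples, with 15 to 31 reads per KO library and 18 to 24 per WT library. The ratio of Epo to Epor per transcript length was 1.34 and 1.27 in KO samples and 0.746 and 0.403 in WT samples, without overlap of the libraries.

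**Figure D2:**
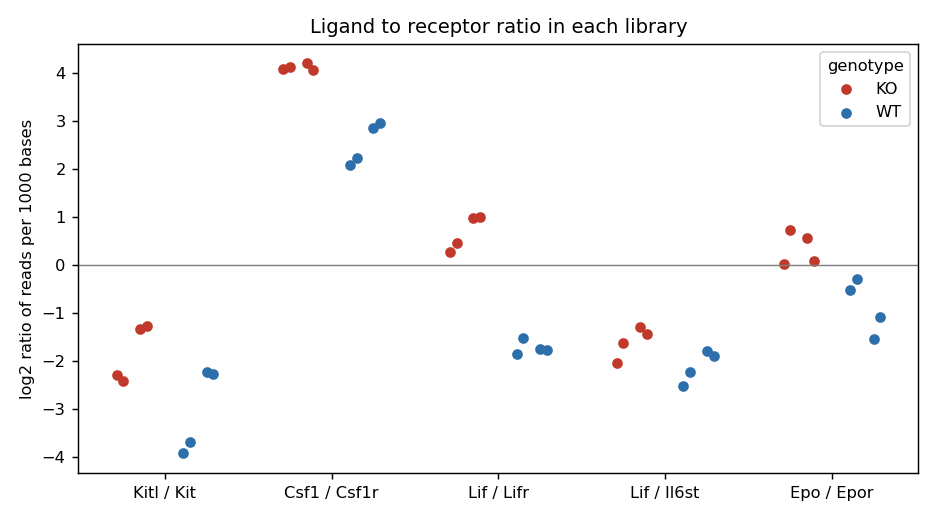
Log2 ratio of ligand to receptor reads per 1000 bases of deposited transcript length (vertical axis) in each of the 4 KO (red) and 4 WT (blue) libraries, with 0.5 added to each count. The Lif to Lifr points lie above 0 in KO and below 0 in WT, the Csf1 to Csf1r and Epo to Epor points do not overlap between genotypes, and the Kitl to Kit and Lif to Il6st points do.

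Of the shared signalling genes, Jak2 stood slightly higher and Stat3 lower in KO. Jak2 (ENSMUSG00000024789), the kinase bound by Epor, stood at 62.5, 56.1, 66.7 and 66.6 CPM in KO libraries 1 to 4, against 50.6, 50.5, 53.4 and 53.2 CPM in WT libraries 1 to 4. All KO libraries lay above all WT libraries by a small margin, and the log2 fold change was 0.28 (SE 0.14).

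Stat3 (ENSMUSG00000004040), the factor activated by LIF, stood at 102, 106, 108 and 113 CPM in KO libraries 1 to 4, against 186, 169, 189 and 185 CPM in WT libraries 1 to 4. The ranges were far apart and samples A and B agreed closely, with means of 107 ± 4.28 CPM in KO and 182 ± 7.12 CPM in WT (SD, n = 2 each; log2 fold change -0.77, SE 0.12). Stat3 lies on chromosome 11 like Lif, and with the chromosome median removed its value was -0.29.

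**Figure D3:**
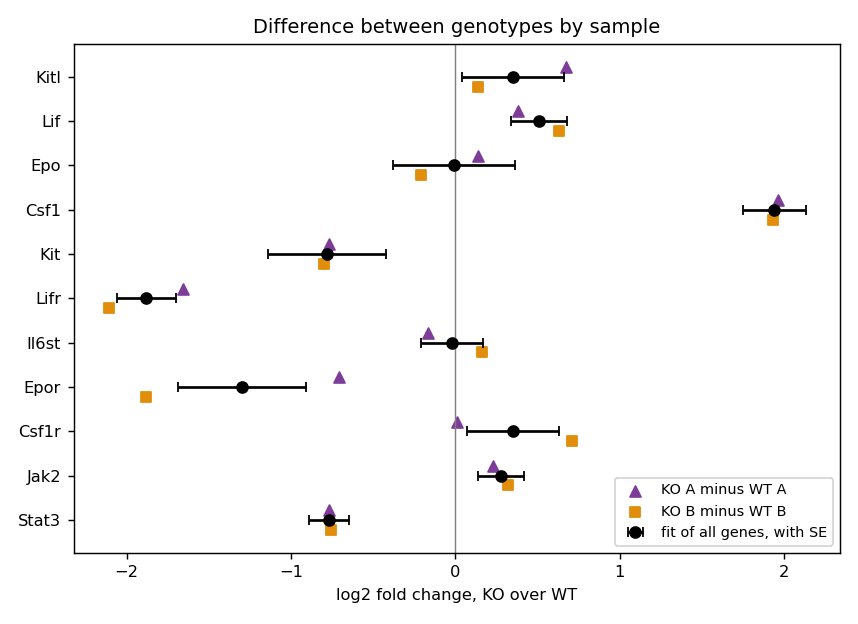
Log2 fold change of KO over WT (horizontal axis) of the 9 genes and of Epo and Csf1r, with circles and SE bars from the fit of all genes, triangles for KO sample A minus WT sample A and squares for KO sample B minus WT sample B. Csf1 lies at 1.94 and Lifr at -1.88. Between same-lettered samples, which nothing shows to be pairs, Kit and Stat3 have nearly the same value for A and B. Epor differs between them (-0.71 and -1.88).

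Read over the group, 7 of the 9 genes had no overlap between the 4 KO and 4 WT libraries, where 28.9% of all 16785 tested genes had none, and 5 lay below 0 and 4 above 0 with a median log2 fold change of -0.02. In the edgeR quasi-likelihood fit over all genes, 31 genes (0.185%) passed an adjusted p of 0.05. Of these 10 (0.0596%) were higher and 21 (0.125%) lower in KO, and they include Csf1 among the higher and Lifr among the lower ones. As the group was drawn up with that comparison known, these counts say nothing further about it. With either KO sample left out, edgeR called 0 of all genes (1704 and 1106 at an unadjusted p under 0.05) and so neither of these, and Csf1 was not called without KO library 1. An exact permutation test of 1 gene between 2 and 2 samples cannot give a p below 0.333.

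Per transcript length, the order of the 9 genes differed between the genotypes. These levels are in CPM per 1000 bases of the length deposited for each gene. In KO, Csf1 was highest at 28.5 ± 4.50 CPM per 1000 bases, followed by Il6st with 21.1 and 19.0 in samples A and B, Stat3 at 17.7 ± 0.708, Kit at 14.7 ± 5.24 and Jak2 at 12.5 ± 1.03 (SD, n = 2). In WT, Stat3 led at 30.1 ± 1.18 CPM per 1000 bases, followed by Kit at 25.3 ± 8.66, Il6st at 20.3 ± 4.77, Lifr at 15.3 ± 0.841, Jak2 at 10.3 ± 0.387 and Csf1 at 7.42 ± 1.27 (SD, n = 2). Csf1 was thus rank 1 in KO and rank 6 in WT, and Lifr, at 4.18 ± 0.678 CPM per 1000 bases in KO, rank 7 in KO and rank 4 in WT. Kitl was rank 8 and Epor rank 9 in both genotypes. Neighbours in this order whose sample ranges overlapped were Stat3 with Kit, Kit with Jak2, and Lifr with Kitl in KO, and Stat3 with Kit, Kit with Il6st, and Kitl with Epor in WT.

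The genes whose pattern over the 4 samples was most like that of Lifr were Inka1, Gata1 and Rnd2, at distances of 0.0868, 0.143 and 0.153 (Euclidean, centred log2 CPM) among 11321 genes of at least 5 CPM. Inka1, the closest, stood at 5.49 and 4.21 CPM in KO samples and 17.2 and 20.2 CPM in WT samples. Gata1 stood at 2.94 and 1.95 CPM in KO samples and 9.13 and 10.8 CPM in WT samples, with 25 to 41 reads per KO library. A link between these genes and Lifr was not tested. Those most like Csf1 were Col5a2, Klhl30 and Synpo2l, at distances of 0.0494, 0.106 and 0.124. Col5a2, a fibrillar collagen gene, stood at 127 and 163 CPM in KO samples and 33.3 and 41.0 CPM in WT samples.

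The wider pathway was read from 6 lists of 114 genes outside the group, of which 112 were in the table and 104 were tested. None passed the edgeR test at an adjusted p of 0.05 over all genes. At an unadjusted edgeR p under 0.05 there were 24 of them, 6 higher and 18 lower in KO. Over all 16785 genes, 2597 (15.5%) were below that p, 7.61% higher and 7.86% lower. With chromosome medians removed these counts were 21 of the pathway genes and 2117 of all genes. Of the lower ones, Stat5a, Stat5b, Grb2 and Socs7 lie on chromosome 11. With its median removed, their log2 fold changes were -0.8, -0.71, 0.1 and 0.1. DESeq2 called 13 of the 104, 4 higher (Cntfr, Dusp6, Il34 and Shc1) and 9 lower (Stat5a, Stat5b, Csf2rb, Csf2rb2, Sh2b3, Pias2, Klf4, Sgk1 and Tbx3). Over all genes it called 1159 (6.9%), 3.37% higher and 3.53% lower. The counts per list that follow are to be read against these shares. The lists, like the group, were drawn up with earlier results of these data known. Their counts are therefore a description and no test of the pathway. The median log2 fold change of the 104 genes was -0.06, and that of all tested genes -0.01. In each list, the 2 genes of highest mean CPM, a level not divided by length, are also named.

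Of 14 tested ligand genes, 0 passed edgeR, 2 higher and 0 lower ones were below 0.05 unadjusted, and the median was 0.12. Il34, which encodes the other ligand of the Csf1 receptor, stood at 4.75 and 4.57 CPM in KO samples and 1.71 and 1.96 CPM in WT samples (log2 fold change 1.34, SE 0.29, edgeR adjusted p = 0.126). Clcf1, which encodes a cytokine of the interleukin-6 family, differed by 0.59 on the log2 scale (KO over WT, SE 0.28). Those of highest CPM, Pdgfb and Cntf, stood at -0.11 (SE 0.24) and 0.08 (SE 0.13). Il34 lies on chromosome 8, whose median was 0.25, and with it removed its value was 1.10.

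Of 27 tested receptor genes, 0 passed edgeR, 1 higher and 6 lower ones were below 0.05 unadjusted, and the median was -0.16. The higher one was Cntfr, which encodes the ciliary neurotrophic factor receptor that acts with Lifr and gp130. It stood at 26.7 and 37.6 CPM in KO samples, against 8.49 and 9.81 CPM in WT samples (log2 fold change 1.81, SE 0.23, edgeR adjusted p = 0.0749). Csf2rb, the common beta chain of the GM-CSF, interleukin-3 and interleukin-5 receptors, stood at 11.6 and 8.23 CPM in KO samples and 22.9 and 29.1 CPM in WT samples (-1.39, SE 0.24, edgeR adjusted p = 0.108). Its close copy Csf2rb2, named after its value was seen, had -1.35 (SE 0.33), and reads may be split between them. Those of highest CPM, Ifnar1 and Ifngr2, stood at -0.06 (SE 0.12) and -0.13 (SE 0.15).

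Of 19 tested JAK, STAT and adaptor genes, 0 passed edgeR, 1 higher and 5 lower ones were below 0.05 unadjusted, and the median was -0.03. The lowest values were those of Stat5a and Stat5b, the factors that Epor and Kit activate. Stat5a stood at 18.8 and 16.9 CPM in KO samples and 37.5 and 48.8 CPM in WT samples (-1.28, SE 0.19, edgeR adjusted p = 0.0961). Stat5b stood at 38.5 and 34.9 CPM in KO samples and 76.6 and 89.9 CPM in WT samples (-1.18, SE 0.15, edgeR adjusted p = 0.0749). They are close copies, so reads may be split between them. The adaptor gene Shc1 had 0.50 (SE 0.13), and Gab1, which with Shc1 had the highest CPM, 0.77 (SE 0.37).

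Stat5b, Stat5a and Stat3 follow each other on chromosome 11 in the RefSeq order. With the median of that chromosome removed their log2 fold changes were -0.71, -0.80 and -0.29. The 4 tested genes before them (Kat2a, Rab5c, Kcnh4 and Ghdc) had log2 fold changes of -0.71 to -0.10 before that step, and the 4 after them (Cavin1, Atp6v0a1, Naglu and Hsd17b1) had -0.25 to 0.35. Stat5b and Stat5a stood lower than each of these 8 genes.

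**Figure D4:**
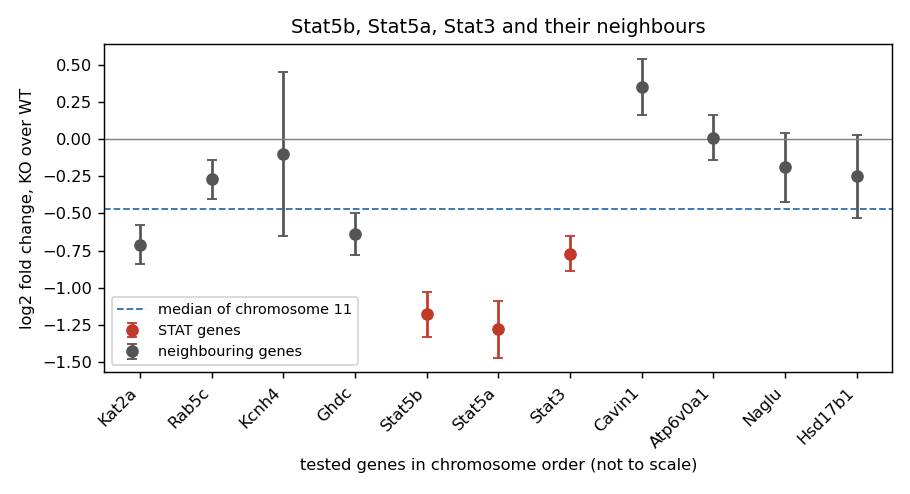
Log2 fold change of KO over WT with SE (vertical axis) of Stat5b, Stat5a and Stat3 (red) and of the 4 tested genes on each side (grey), in chromosome order and not to scale, with the chromosome 11 median of -0.47 dashed. The STAT genes lie at -1.18, -1.28 and -0.77, and the next gene, Cavin1, at 0.35.

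Of 21 tested inhibitor genes, 0 passed edgeR, 2 higher and 4 lower ones were below 0.05 unadjusted, and the median was -0.19. Dusp6, a phosphatase gene of the ERK pathway, stood at 82.9 and 112 CPM in KO samples and 47.5 and 44.2 CPM in WT samples (1.08, SE 0.18, edgeR adjusted p = 0.105), and with Pias2 it had the highest CPM of the list. Sh2b3, which encodes the adaptor LNK that restrains Kit and Jak2 signalling, stood at 34.0 and 25.2 CPM in KO samples and 59.3 and 47.6 CPM in WT samples (-0.85, SE 0.21, edgeR adjusted p = 0.150). Pias2 had -0.76 (SE 0.19).

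Of 15 tested LIF and STAT3 target genes of ES cells, 0 passed edgeR, 0 higher and 3 lower ones were below 0.05 unadjusted, and the median was -0.31. The 3 were Klf4 (-1.02, SE 0.28), Sgk1 (-0.83, SE 0.23) and Tbx3 (-1.46, SE 0.52). Klf4, a pluripotency factor gene, stood at 12 and 18.9 CPM in KO samples and 36 and 26.9 CPM in WT samples (edgeR adjusted p = 0.183). Those of highest CPM, Nanog and Pim3, stood at -0.65 (SE 0.39) and 0.09 (SE 0.24). For Esrrb, Tfcp2l1, Pim1, Pim3 and Bcl3, both KO samples lay below WT sample A and above WT sample B. Esrrb stood at 60.8 and 91.1 CPM in KO samples and 232 and 25.2 CPM in WT samples. For Myc, both KO samples lay above WT sample A and below WT sample B. Of 14 tested targets of EPO, KIT and STAT5 signalling, 0 passed edgeR, 1 higher (Dusp6, shared with the inhibitors) and 0 lower ones were below 0.05 unadjusted, and the median was 0.01. Tfrc had -0.31 (SE 0.16), and the genes of highest CPM, Mcl1 and Ccnd3, had 0.37 (SE 0.19) and 0.05 (SE 0.14).

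**Figure D5:**
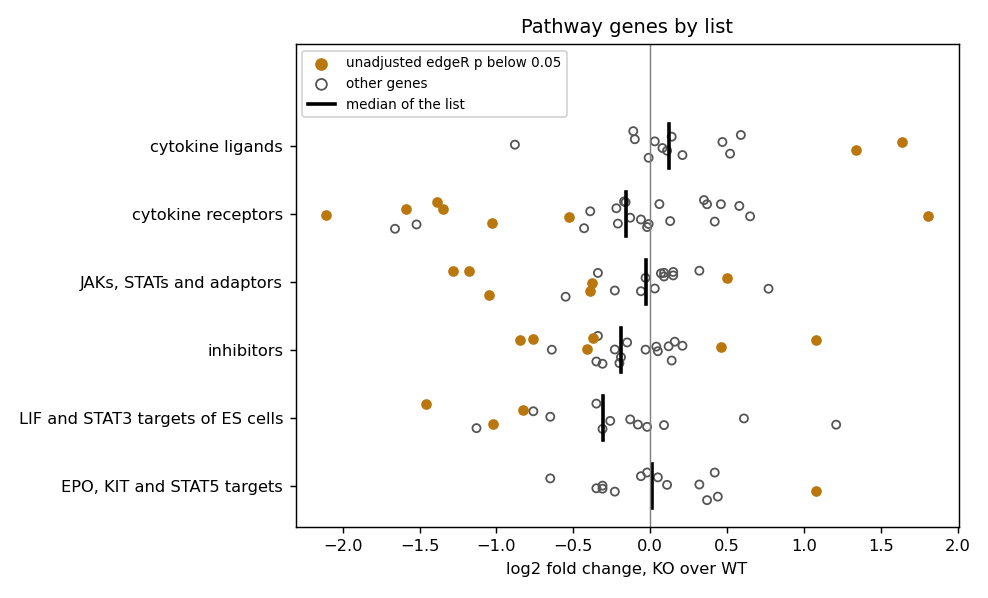
Log2 fold change of KO over WT (horizontal axis) of each tested gene of the 6 pathway lists, with filled points for an unadjusted edgeR p under 0.05 and a bar at the median of each list. The medians lie between -0.31 and 0.12, and the filled points are 18 lower and 6 higher genes, with Dusp6 drawn in both lists that hold it.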

How the data were processed

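RNA-seq of Flk1+ cells gave the authors' deposited table of read counts per Ensembl gene, with 1 transcript length per gene, for 4 KO and 4 WT libraries, per the file headers. The submitters' processing notes name mm9 and DESeq. Aligner, counter, strand setting and the choice of length are not given there. ChIP-seq peaks were not used, since no gene positions of their build were at hand. A RefSeq table (GRCm38.p6) gave chromosomes of 19653 genes, gene order and promoters, and 20362 genes had a symbol.

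The members and lists were chosen with earlier results of these data known. Mean chi-square statistics per gene with at least 20 reads per pair of libraries were 1.065 to 1.101 for libraries 1 with 2 and 3 with 4, and 12.764 to 28.465 for other pairs of a genotype. Libraries 1 with 2 and 3 with 4 were therefore summed, giving 2 samples per genotype. Low counts were removed by filterByExpr, TMM factors were computed, and the fit used edgeR 4.0.16 (robust quasi-likelihood test) in R 4.3.3, adjusted by Benjamini-Hochberg over 16785 genes, after the script was tested on simulated data. SE is the absolute log2 fold change divided by the square root of the F statistic. Library CPM use the scaling of their sample. Differences between samples use log2 CPM, and ratios add 0.5 to each count. Distances between gene patterns and the correlation of sample deviations add 0.5 to CPM before the log. Named pathway genes were the 3 with the smallest p and the 2 of highest mean CPM of each list. Some genes that this rule names are not reported here. Flt3l and Cebpd were not analysed here. Alternatives used DESeq2 1.42.0, limma 3.58.1 and other scalings, filters, blocks and samples. Python 3.11.15, pandas 2.3.3 and matplotlib 3.10.9 made the summaries and figures.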

Additional observations from a re-analysis of the deposited data

How the results depend on the processing

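Of the 9 genes, Kit, Epor, Lifr, Lif, Csf1, Jak2 and Stat3 kept the direction of their log2 fold change in all 24 alternatives, Kitl in 23 and Il6st in 21. Lifr ranged from -2.05 to -1.72 and Csf1 from 1.77 to 2.13. Chromosome medians removed moved Lif to 0.98 and Stat3 to -0.29. Kit ranged from -1.19 without KO sample A to -0.39 without WT sample A, and Kitl from -0.01 without WT sample A to 0.84 without WT sample B. Without WT sample B Epor had -0.96, without WT sample A Il6st had 0.23, and without KO sample B Lif had 0.36. The 5 ligand to receptor ratios moved by at most 0.01 with 1 added to each count.

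The number of genes called, 31 by edgeR, depended on the tool and samples, and the cause was not tested. It was 1159 by DESeq2, 3 by limma-voom, 151 with no filter, 5 with a filter of 1 CPM in 2 samples, 5 with chromosome medians removed, 2 at an adjusted p of 0.01, 3860 with 8 libraries as replicates and 3410 with 8 libraries and a block. Left-out libraries or samples gave 0 to 1674 genes: 0 without KO sample A or B (1704 and 1106 at an unadjusted p under 0.05), 1537 without WT sample A and 1674 without WT sample B. Of the 9 genes, 2 were called, against 0 with upper quartile scaling, limma-voom, the 1 CPM filter or chromosome medians removed, 1 with library size scaling, 6 with 8 libraries and 7 with 8 libraries and a block. Left-out libraries or samples gave 0 to 4, with 0 without KO sample A or B, 1 without KO library 1 and 4 without WT sample A or B. DESeq2 called 3 of the 9, with Stat3 added, where it called 6.9% of all genes. The fits with 8 libraries called 3860 and, with a block, 3410 of 15589 genes tested, against which their member and pathway counts are to be read. They count as replicates libraries that differed by little more than sampling noise. Csf1 and Lifr each stayed called in 15 of 24 alternatives. Pathway genes called, 0 by edgeR, were 13 by DESeq2, 3 with no filter, and 30 with 8 libraries with or without a block. Left-out libraries or samples gave 0 to 18, with 15 without WT sample A and 18 without WT sample B. A lone sample left in a genotype was assumed to vary like the other genotype.

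With a block for sample A or B, 5 genes, 0 of the 9 and 0 pathway genes were called. The deviations of same-lettered samples correlated at r = -0.111 over 11205 genes, so nothing shows that the letters pair the samples. With crossed pairing, added after seeing the data, 4 genes, 0 of the 9 and 0 pathway genes were called. Epor and Epo rest on 15 to 60 reads per library, which limits their precision.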
